A study of Bos taurus with 8 samples.

Results

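The collagen genes of bovine preadipocyte clones were examined by structural class. Collagen genes were taken as the rows whose gene symbol has the form COL, a type number, A and a chain number, and 36 of the 18871 named genes in the deposited table met that rule. They comprised 9 fibrillar genes, 5 basement membrane (type IV) genes, 4 beaded (type VI) genes, 8 fibril-associated genes and 3 transmembrane genes. The remaining 7 were 2 multiplexin genes, 3 short-chain network genes, the anchoring fibril gene *COL7A1* and *COL26A1*, which was left unclassed. Of the 44 collagen symbols in the RefSeq gene list for cattle, *COL2A1*, *COL4A3*, *COL6A6*, *COL20A1*, *COL22A1*, *COL23A1*, *COL24A1* and *COL28A1* were not analysed here. The 36 genes lie on 19 chromosomes, and all 36 symbols were matched in that list.

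RNA-seq had been performed on 8 single-cell-derived clones of the stromal vascular fraction (SVF), the non-adipocyte cells released when adipose tissue is digested. Clones IMF1 to IMF4 came from intramuscular fat, dissected from the longissimus dorsi muscle, and clones SF1 to SF4 came from subcutaneous fat. The donors were adult Angus-cross steers, 5 of them by the labels although the study's methods give another number, and each clone was raised from a separate SVF sample, although which clones share an animal was not stated. The sequenced clones had been picked from a larger set by how they grew, looked and formed fat, so each library represents the progeny of 1 selected cell and not a whole depot. According to the study's methods RNA was taken from sub-confluent cells before adipogenic differentiation, whereas the series' design text places adipogenic induction before sequencing. Both groups were handled alike in either account.

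Collagens are trimers of chains wound into a triple helix, and the classes differ in what the trimers build. Fibrillar collagens (types I, III, V and XI) pack side by side into the tensile fibres of connective tissue, and fibril-associated collagens sit on the surface of those fibres. Type IV collagen forms the sheet-like network of basement membranes, type VI collagen forms beaded microfilaments around cells, and transmembrane collagens are anchored in the plasma membrane. Preadipocytes, like other fibroblast-like cells, secrete the fibrillar and type VI chains, and adipocytes are each wrapped in a basement membrane.

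The clones had 19654917 to 29308882 assigned counts each. The median chi-square statistic per gene between clone pairs was 1.59 to 3.65 within IMF and 3.04 to 7.46 within SF, against 0.455 for repeat sampling of 1 library, so no library was a repeat deposit of another. Separate libraries of 1 clone would also exceed that value, and whether any clones were related was not tested. P-values measured the spread between these clones. All 10 skeletal muscle marker genes were higher in IMF clones, with a summed level of 753 to 862 CPM against 1.34 to 6.36 CPM in SF clones, and *MYOD1*, *MYOG* and *CKM* had 0 counts in every SF clone. Of 13 endothelial markers, 12 were higher in IMF clones (summed 221 to 274 against 29.1 to 40.7 CPM), and *KDR*, *SOX18* and *EMCN* had 0 counts in every SF clone. Of 5 smooth muscle and pericyte markers tested, *MYH11* was higher and 4 were lower in IMF clones, with sums of 2177 to 2446 CPM in IMF against 11035, 4010, 3240 and 7196 CPM in SF1 to SF4. The 8 stromal and preadipocyte markers summed to 3414 to 3557 CPM in IMF clones and 3448 to 5255 CPM in SF clones, and of these *THY1* was lower in IMF clones. The part of these marker genes in the collagen results below was not tested, and because each library is bulk RNA, fewer cells of a kind and less RNA per cell cannot be told apart.

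Levels between clones are given in CPM, counts scaled to library size and composition, and levels between genes in TPM, which also divide by gene length. Log2 fold changes are IMF relative to SF, each with its standard error (SE) and an adjusted p over all 18339 genes tested. A gene was called when its adjusted p was under 0.05 and its log2 fold change was at least 1 in size. Of the 36 collagen genes, 35 had enough counts to be tested, while *COL10A1* had 12 counts in all, 4 in SF3 and 8 in SF4.

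The collagen genes called lower in IMF clones were moderate to abundant, and those called higher were scarce, with at most 25.0 CPM in any clone. In all, 8 collagen genes were lower in IMF clones: *COL1A1*, *COL5A2*, *COL6A1*, *COL6A2*, *COL6A3*, *COL12A1*, *COL14A1* and *COL16A1*. The background was 4.04% of all genes tested called lower in IMF (741 genes). Another 4 were higher in IMF clones: *COL5A3*, *COL4A4*, *COL6A5* and *COL13A1*, beside a background of 4.78% (877 genes). Without composition scaling the split over all genes was 539 lower and 1078 higher, and it was 7 lower and 5 higher among the collagen genes. At an adjusted p under 0.05 with any fold change there were 15 collagen genes, the extra ones being *COL1A2*, *COL15A1* and *COL7A1*, against 25.8% of all genes. The 4 IMF and the 4 SF clones did not overlap for 19 collagen genes, 12 lower and 7 higher in IMF, where 32.1% of all genes had groups that did not overlap. All 12 called collagen genes were among those 19. The median log2 fold change was -0.54 over the 35 tested collagen genes and -0.03 over all genes. The collagen median is the fitted value of *COL4A1*, which varied widely among SF clones, and it was 0.14 without SF1, 0.012 with limma-voom and 0.016 with clone number as a block, so the direction of the median rests on SF1 and on the fit.

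**Figure D1:**
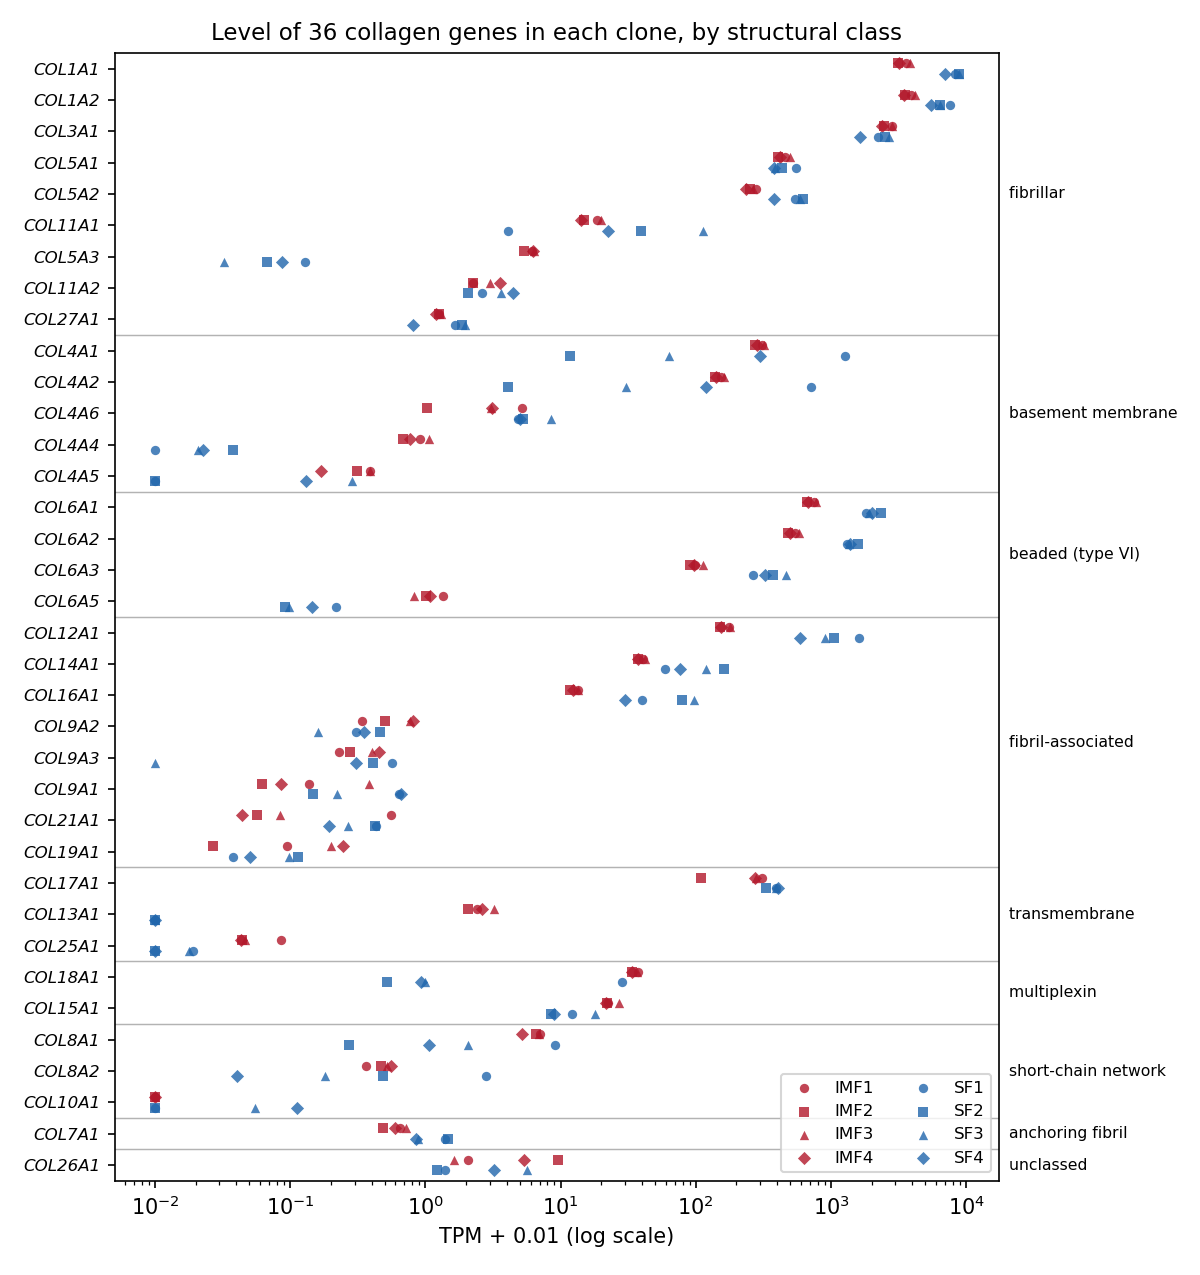
TPM + 0.01 (log axis) of the 36 collagen genes, ordered by class, with a red point for each of the 4 IMF clones and a blue point for each of the 4 SF clones. *COL1A1*, *COL1A2* and *COL3A1* had the highest mean levels in both groups, although *COL6A1* was above *COL3A1* in SF4, and *COL13A1* lay at 0 TPM in every SF clone.

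The fibrillar class held the most abundant collagen mRNAs, and its members did not move together. *COL1A1* and *COL1A2* encode the chains of type I collagen, the main protein of most connective tissue. *COL1A1* (chr19:36457711-36474476 in ARS-UCD2.0) had 12254, 11982, 12915 and 12336 CPM in IMF1 to IMF4 and 31043, 29709, 30856 and 28751 CPM in SF1 to SF4. The groups were far apart and tight, and the level was 2.43-fold higher in SF clones (log2 fold change -1.28, SE 0.13, adjusted p = 0.000308). *COL1A2* (chr4:11776417-11813113) had 10331, 10462, 10742 and 10177 CPM in the IMF clones and 21549, 16482, 17087 and 17547 CPM in the SF clones. Its SF levels were all above its IMF levels, with SF1 the highest, but its log2 fold change of -0.80 (SE 0.14, adjusted p = 0.00432) was under the fold required for a call.

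The ratio of both type I chains therefore differed between the groups. Type I collagen is mostly a heterotrimer in which α1 chains outnumber the α2 chain. The TPM ratio of *COL1A2* to *COL1A1* was 1.10, 1.14, 1.08 and 1.07 in IMF1 to IMF4 and 0.905, 0.723, 0.722 and 0.795 in SF1 to SF4. Every IMF clone was above 1 and every SF clone below it. That position relative to 1 depends on the gene lengths used for TPM (6025 bases for *COL1A1*, 4624 for *COL1A2*). In CPM, *COL1A2* was below *COL1A1* in every clone, so only the difference between the groups is read here, not the proportion of the chains.

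*COL3A1*, whose product mixes with type I collagen in extensible tissues, had 8678, 8502, 8620 and 8247 CPM in the IMF clones and 7491, 7556, 8396 and 6109 CPM in the SF clones. SF3 reached into the IMF range, and the difference was within the spread (log2 fold change 0.20, SE 0.13, adjusted p = 0.313). Set against *COL1A1*, however, the groups were apart. The TPM ratio of *COL3A1* to *COL1A1* was 0.742 to 0.789 in the IMF clones and 0.236 to 0.303 in the SF clones. *COL3A1* thus made up 20.4% ± 0.458 (SD, n = 4) of collagen TPM in IMF clones and 9.39% ± 1.37 in SF clones.

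Type V chains seed the assembly of type I fibrils, and the 3 type V genes behaved differently from each other. *COL5A1* had 2254 ± 85.0 CPM (SD, n = 4) in IMF clones and 2259 ± 439 CPM in SF clones, with no difference beyond the spread (SE 0.15, adjusted p = 0.990). *COL5A2* (chr2:7284623-7358813) had 1020, 1032, 952 and 975 CPM in the IMF clones and 2144, 2242, 2223 and 1680 CPM in the SF clones. Its level was 2.08-fold higher in SF (log2 fold change -1.06, SE 0.12, adjusted p = 0.000487), close to the fold threshold, and without composition scaling the log2 fold change was -0.92 and no longer called. *COL3A1* lies 16464 bases from *COL5A2* in the RefSeq annotation and did not share that difference. The TPM ratio of *COL5A2* to *COL5A1* was 0.529 to 0.623 in IMF clones and 0.977 to 1.55 in SF clones.

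*COL5A3* (chr7:14542635-14587336) encodes the α3 chain of type V, found in fewer tissues than the other chains. It had 21.8, 21.6, 22.4 and 25.0 CPM in IMF1 to IMF4 and 0.462, 0.200, 0.0812 and 0.331 CPM in SF1 to SF4. The SF values rest on 9, 4, 2 and 6 counts, against 455 to 660 counts in the IMF clones. The gene was 85.9-fold higher in IMF clones (log2 fold change 6.42, SE 0.32, adjusted p = 8.2e-06). A RefSeq gene overlaps *COL5A3*, and how reads in such overlaps were assigned is not given in the sources used here.

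Of the minor fibrillar genes, *COL11A1*, which encodes a cartilage collagen chain that co-assembles with type V, varied most. Its IMF clones had 78.6, 70.6, 82.8 and 67.8 CPM, whereas SF1 to SF4 had 18.8, 163, 489 and 114 CPM. SF1 was below all IMF clones and the other SF clones were above them (log2 fold change -1.39, SE 0.75, adjusted p = 0.214). Without SF1 the log2 fold change was -1.77 and the gene was called (adjusted p = 0.0253), whereas without SF3, its highest clone, it was -0.42 (adjusted p = 0.647), and it was -0.59 with limma-voom and -0.72 with clone number as a block. *COL11A2* and *COL27A1* had mean levels of 6.04 to 11.8 CPM, and their groups overlapped, with log2 fold changes of -0.25 and -0.31 (adjusted p = 0.602 and 0.328). Without SF4, its lowest clone, *COL27A1* had a log2 fold change of -0.50 (adjusted p = 0.0186), still under the fold threshold.

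**Figure D2:**
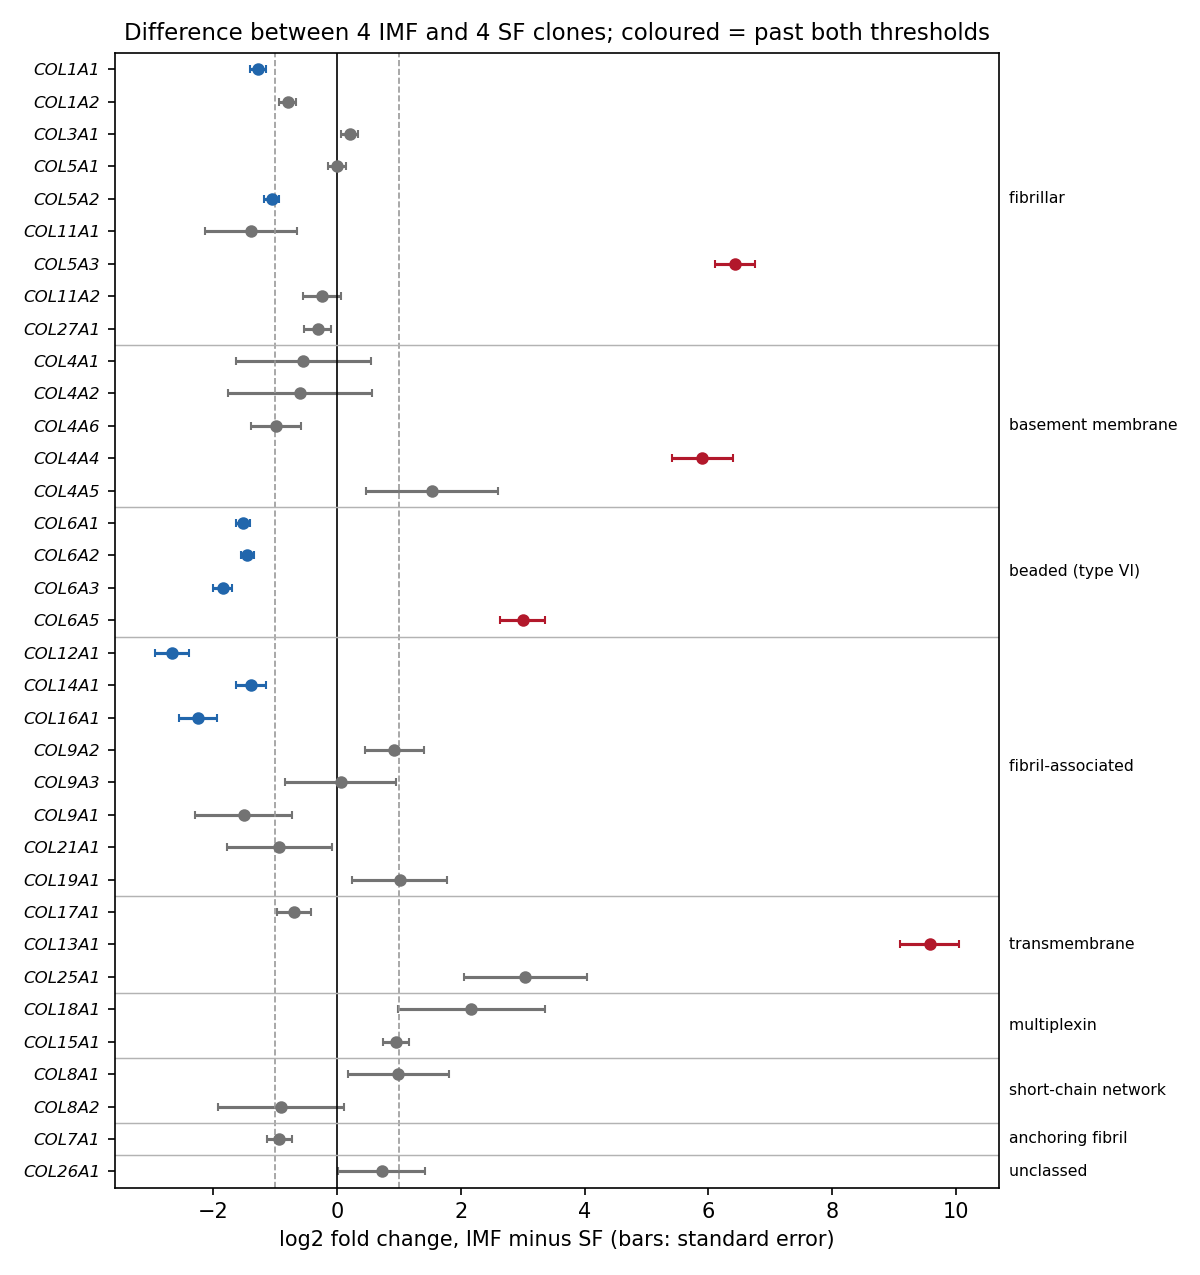
Log2 fold change (IMF relative to SF) with its standard error for the 35 tested collagen genes, by class, with called genes in blue (lower in IMF) or red (higher in IMF) and the others in grey. The called genes lie left of -1 or right of 1, the fitted value of *COL13A1* depends on the prior count because every SF clone had 0 counts, and *COL4A1*, *COL4A2* and *COL18A1* have the widest standard errors among genes above 20 mean CPM.

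Within type VI, the genes of the common trimer shifted by similar folds. The *COL6A1*, *COL6A2* and *COL6A3* chains form 1 heterotrimer that assembles into microfilaments joining cells to the matrix, and all 3 genes were lower in IMF clones. *COL6A1* (chr1:145668730-145687976) had 1734, 1713, 1764 and 1764 CPM in the IMF clones and 4609, 5302, 4524 and 5637 CPM in the SF clones, 2.88-fold higher in SF (log2 fold change -1.52, SE 0.12, adjusted p = 6.9e-05). *COL6A2* (chr1:145807107-145838162), 119130 bases away on the same chromosome, had 1783, 1794, 1889 and 1833 CPM in the IMF clones and 4725, 5087, 4565 and 5545 CPM in the SF clones. It was 2.73-fold higher in SF (log2 fold change -1.45, SE 0.11, adjusted p = 6.86e-05).

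*COL6A1* and *COL6A2* ordered the SF clones identically, with SF4 highest and SF3 lowest, and the groups did not overlap for either. *COL6A3* (chr3:116781707-116872733), the gene of the long α3 chain, had 603, 622, 683 and 668 CPM in the IMF clones and 1773, 2243, 2872 and 2389 CPM in the SF clones. Here SF3 was the highest, and the gene was 3.60-fold higher in SF (log2 fold change -1.85, SE 0.16, adjusted p = 0.000105). The TPM ratio of *COL6A2* to *COL6A1* was 0.721 to 0.750 in IMF clones and 0.672 to 0.718 in SF clones, slightly higher in IMF and without overlap. That of *COL6A3* to *COL6A1* was 0.132 to 0.147 in IMF clones and 0.146 to 0.241 in SF clones, so its groups overlapped.

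*COL6A5*, a low-level gene for an alternative chain of type VI, went in the other direction. It had 6.72, 5.59, 3.99 and 6.09 CPM in the IMF clones and 1.13, 0.400, 0.446 and 0.827 CPM in the SF clones. The groups were separate, and the level was 7.99-fold higher in IMF clones (log2 fold change 3.00, SE 0.36, adjusted p = 0.000676). In TPM, *COL6A5* averaged 1.06 in IMF clones, where *COL6A3* averaged 100.2.

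Among fibril-associated collagens, the 3 with substantial levels were all lower in IMF clones. *COL12A1* (chr9:14661264-14776400) encodes type XII collagen, which decorates type I fibrils in tissues under tension. It had 1198, 1151, 1190 and 1158 CPM in IMF1 to IMF4 and 11887, 7019, 6190 and 4802 CPM in SF1 to SF4. The IMF clones were nearly identical, while the SF clones ranged widely with SF1 on top, and the gene was 6.37-fold higher in SF (log2 fold change -2.67, SE 0.27, adjusted p = 0.000295). SF1 also had the highest smooth muscle and pericyte marker sum, and SF4, with the next highest sum, had the lowest *COL12A1* level of the SF clones. The part of those markers in the *COL12A1* level was not tested.

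*COL14A1*, the gene of a fibril-associated collagen related to type XII, had 181, 189, 186 and 188 CPM in the IMF clones and 290, 713, 542 and 413 CPM in the SF clones. SF1, highest for *COL12A1*, was the lowest SF clone for *COL14A1* (2.63-fold higher in SF, log2 fold change -1.40, SE 0.25, adjusted p = 0.00411). *COL16A1*, whose product associates with fibrils and microfibrils, had 42.5, 41.1, 41.6 and 43.7 CPM in the IMF clones and 135, 244, 310 and 113 CPM in the SF clones. It was 4.76-fold higher in SF (log2 fold change -2.25, SE 0.31, adjusted p = 0.00122), and the groups did not overlap. The other 5 genes of the class, the cartilage type IX genes *COL9A1*, *COL9A2*, *COL9A3* with *COL19A1* and *COL21A1*, had at most 1.81 CPM in any clone, log2 fold changes from -1.51 to 1.01, and adjusted p from 0.194 to 0.972. *COL21A1* was called without IMF1, its highest IMF clone (log2 fold change -2.57, adjusted p = 0.0203). For *COL9A1* and *COL21A1* every count was an even number, as it was for 1183 of the 3303 tested genes with totals of 20 to 200 counts.

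Of the basement membrane genes, *COL4A1* and *COL4A2* differed more among SF clones than between the groups, while *COL4A4* was called. *COL4A1* (chr12:84863917-84995777) and *COL4A2* (chr12:84996172-85157766) encode the chains of the common type IV trimer and are neighbours, with 394 bases between them. *COL4A1* had 1013, 1015, 1037 and 1048 CPM in IMF1 to IMF4, but 4557, 38.0, 210.4 and 1193 CPM in SF1 to SF4. *COL4A2* had 534, 548, 559 and 557 CPM in the IMF clones and 2705, 13.9, 108 and 507 CPM in the SF clones. The highest SF clone was 120-fold above the lowest for *COL4A1* and 195-fold for *COL4A2*, whereas the same ratio among IMF clones was 1.04 and 1.05.

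Both genes placed the SF clones in the same order, SF1, SF4, SF3 and SF2, and the SF clones lay on either side of the IMF clones. Neither gene differed between the groups beyond that spread (*COL4A1* log2 fold change -0.54, SE 1.09, adjusted p = 0.759, *COL4A2* log2 fold change -0.60, SE 1.17, adjusted p = 0.751). The sign turned when SF1 was left out, with log2 fold changes of 1.10 and 1.39 that were not called either. The TPM ratio of *COL4A2* to *COL4A1* was 0.495 to 0.506 in the IMF clones and 0.342 to 0.557 in the SF clones. The order of the SF clones was also that of the summed smooth muscle and pericyte markers for SF1 and SF4, which were the highest in both, but not for SF2 and SF3. The part of those markers was not tested.

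**Figure D3:**
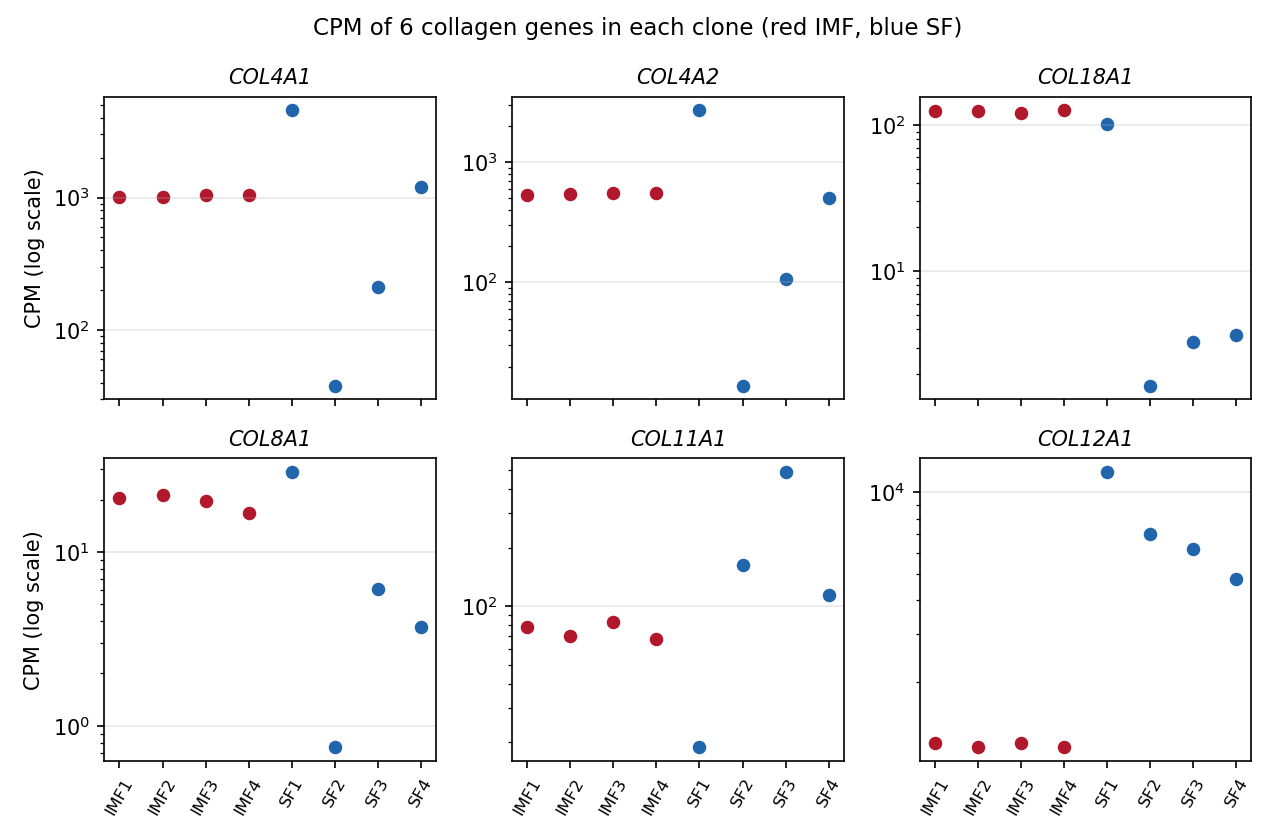
CPM (log axis) of 6 collagen genes in each of the 4 IMF clones (red) and 4 SF clones (blue). *COL4A1*, *COL4A2* and *COL18A1* were nearly level across IMF clones and spanned 120-fold, 195-fold and 61.4-fold among SF clones, with SF1 the highest for each.

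The other type IV genes were expressed at low levels. *COL4A4*, a chain of the network of kidney, eye and inner ear basement membranes, had 69, 84, 84 and 65 counts in the IMF clones, against 0, 2, 1 and 1 counts in the SF clones. Summed over the clones, 302 against 4 counts gave a ratio per library size of 65.7 (95% exact interval 25.4 to 243, counting error only), and the gene was higher in IMF clones (log2 fold change 5.90, SE 0.49, adjusted p = 0.000105). It overlaps *RHBDD1* in the annotation. *COL4A5* had 30, 39, 31 and 14 counts in the IMF clones, against 0, 0, 26 and 10 in the SF clones, so SF1 and SF2 were below 3 counts while SF3 and SF4 were not (log2 fold change 1.54, SE 1.06, adjusted p = 0.335). Its neighbour *COL4A6*, 1359 bases away on chromosome X, had 20.6, 4.55, 11.97 and 13.8 CPM in the IMF clones and 20.8, 20.7, 34.8 and 24.1 CPM in the SF clones. Those groups did not overlap, although IMF1 and SF2 were nearly equal, and the gene was not called (log2 fold change -0.99, SE 0.40, adjusted p = 0.106) except without IMF1 (log2 fold change -1.32, adjusted p = 0.0480).

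The transmembrane class joined 1 abundant gene and 2 scarce ones. *COL17A1* (chr26:24591190-24638064), whose product is a hemidesmosome component of basal epithelial cells, was abundant in every clone, with 955, 384, 847 and 964 CPM in the IMF clones and 1330, 1013, 1233 and 1531 CPM in the SF clones. Its mean TPM ranked above 98.3% of all genes. IMF2 was the lowest clone, all SF clones were above all IMF clones, and the difference did not pass the test (log2 fold change -0.70, SE 0.28, adjusted p = 0.107). The basal epithelial keratin gene *KRT14* was also abundant in both groups, at 4660 ± 1234 CPM (SD, n = 4) in IMF clones and 2171 ± 708 CPM in SF clones, higher in IMF (log2 fold change 1.10, adjusted p = 0.0227). *CDH1*, which encodes the adhesion protein of epithelial junctions, had 0 counts in every SF clone and 16.3 ± 1.25 CPM in IMF clones. These were the only 2 of 4 listed epithelial markers in the table, and *EPCAM* and *KRT5* were not in it.

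*COL13A1* (chr28:26095666-26248051), which encodes a membrane collagen of the neuromuscular junction and other adhesion sites, had 80, 113, 112 and 98 counts in IMF1 to IMF4 and 0 counts in every SF clone. Against a floor of 3 counts in each SF library it was at least 29.2-fold higher in IMF clones (adjusted p = 0.000155). *COL25A1*, whose product is a membrane collagen required for innervation of developing muscle, had 8, 6, 4 and 4 counts in the IMF clones, against 1, 0, 1 and 0 in the SF clones. The ratio of 22 to 2 counts per library size was 9.58 (95% exact interval 2.35 to 84.0, counting error only) and missed the threshold (adjusted p = 0.0555), although DESeq2 and limma-voom called it. Skeletal muscle markers were higher in the same clones as *COL13A1*, in which *MYOD1* had 3195 to 4600 counts, and their part in that result was not tested.

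Multiplexins lie at basement membranes and carry endostatin-like ends, and neither was called by edgeR, whereas limma-voom called both higher in IMF clones (*COL18A1* log2 fold change 4.25, adjusted p = 0.00893, *COL15A1* 1.01, adjusted p = 0.00966). *COL18A1* (chr1:145202118-145296602) had 124, 124, 119.5 and 126 CPM in IMF1 to IMF4 and 101, 1.65, 3.29 and 3.69 CPM in SF1 to SF4. SF1 was close to the IMF clones and the other SF clones far below them (log2 fold change 2.17, SE 1.19, adjusted p = 0.223). Without SF1 the log2 fold change was 5.42 and the gene was called (adjusted p = 1.68e-05). *COL15A1* had 71.5, 78.0, 84.2 and 77.6 CPM in the IMF clones and 42.2, 26.3, 58.0 and 34.3 CPM in the SF clones, a separation with a log2 fold change of 0.95 (SE 0.21, adjusted p = 0.0131) that was under the fold threshold. It passed the threshold without SF3 (1.15), with total counts alone (1.09) and with clone number as a block (1.01).

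In the short-chain network class, *COL8A1*, which encodes a chain of the type VIII network of vessel walls, followed the SF clones of *COL18A1* in part. It had 20.3, 21.4, 19.7 and 16.8 CPM in the IMF clones and 28.8, 0.751, 6.13 and 3.69 CPM in the SF clones. SF1 was again far above the other SF clones (log2 fold change 0.99, SE 0.82, adjusted p = 0.421), and without it the gene was called higher in IMF (2.45, adjusted p = 0.0140). *COL8A2*, the partner chain, had 1.06 to 1.86 CPM in IMF clones and 9.14, 1.40, 0.528 and 0.110 CPM in SF clones (log2 fold change -0.90, SE 1.02, adjusted p = 0.566). *COL7A1*, whose product anchors epithelial basement membranes, had 3.35 ± 0.368 CPM (SD, n = 4) in IMF clones and 6.39 ± 1.61 CPM in SF clones (log2 fold change -0.93, SE 0.21, adjusted p = 0.0122). It lay under the fold threshold, and leaving out IMF3, SF3 or SF4 took it past the threshold (-1.01 to -1.09). *COL26A1* had 3.41, 17.7, 2.63 and 9.90 CPM in the IMF clones and 2.52, 1.95, 9.50 and 6.45 CPM in the SF clones, which overlapped.

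Of the genes with wide SF ranges, *COL4A1*, *COL4A2*, *COL18A1*, *COL8A1* and *COL8A2* were all highest in SF1, whereas *COL11A1* was lowest there. *COL4A5*, with 0, 0, 26 and 10 counts in SF1 to SF4, and *COL26A1* were highest in SF3, as was *COL11A1*. For these genes IMF clones were far more alike, apart from *COL26A1*, which ranged from 2.63 to 17.7 CPM among them. For the 18 collagen genes with a mean of at least 10 CPM in both groups, the median coefficient of variation was 2.67% in IMF clones and 23.0% in SF clones, and it was larger in SF for 16 of the 18 (88.9%). Over the 8642 genes that met the same minimum the medians were 6.00% and 12.4%, and it was larger in SF for 76.7%. These are descriptions, with no test of the spread.

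Class shares were compared in TPM. Collagen genes took 4.55%, 4.38%, 4.83% and 4.33% of all counts in IMF1 to IMF4 and 9.26%, 7.99%, 8.09% and 6.79% in SF1 to SF4. The summed collagen level was 12878 ± 1158 TPM (SD, n = 4) in IMF clones and 24028 ± 2788 TPM in SF clones, and the groups did not overlap. *COL1A1*, *COL1A2* and *COL3A1* together gave 76.3% ± 0.649 of that sum in IMF clones and 70.6% ± 2.47 in SF clones.

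The fibrillar class gave 81.9% ± 0.657 of collagen TPM in IMF clones and 74.9% ± 2.69 in SF clones. Type VI gave 10.4% ± 0.154 in IMF clones and 16.0% ± 2.50 in SF clones. Fibril-associated genes gave 1.70% ± 0.0211 in IMF clones and 4.93% ± 1.24 in SF clones. The groups did not overlap for any of these 3 classes, and the SF profile held relatively more type VI and fibril-associated mRNA and relatively less fibrillar mRNA. Basement membrane genes gave 3.50% ± 0.0697 in IMF clones but 7.44%, 0.0855%, 0.419% and 2.11% in SF1 to SF4, and transmembrane genes gave 1.89% ± 0.646 and 1.61% ± 0.296, so both overlapped. No test was run on shares, which are not independent of each other.

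**Figure D4:**
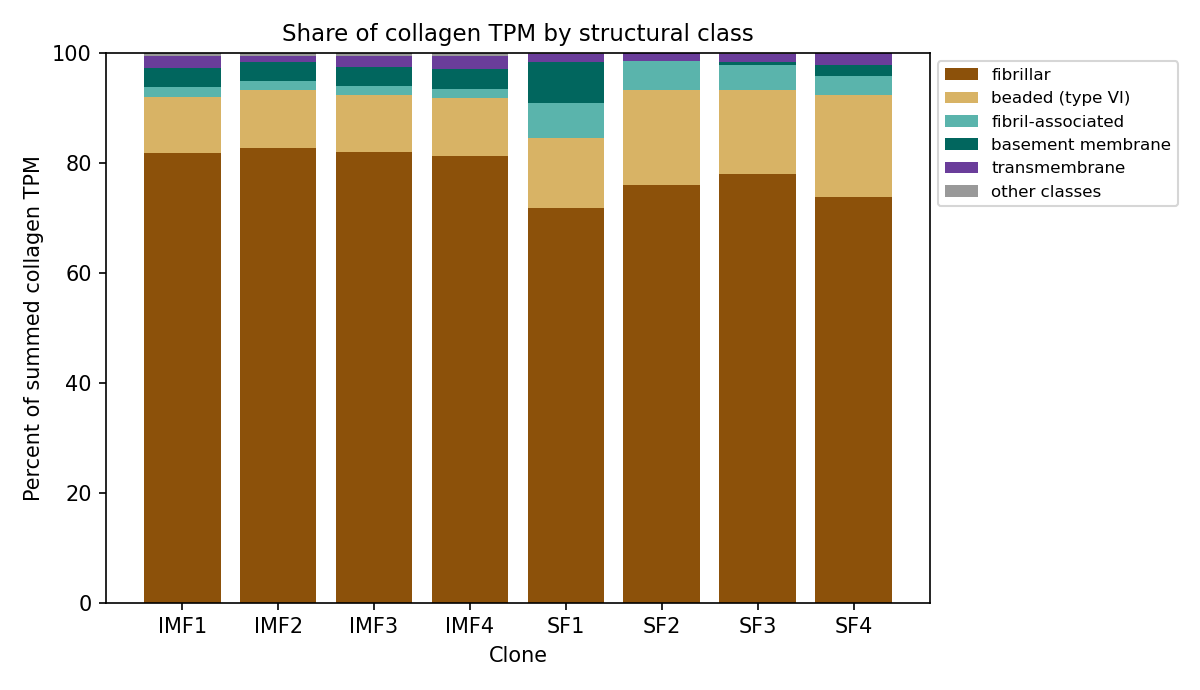
Share of summed collagen TPM (percent, 0 to 100) by structural class, as 1 stacked bar for each of the 4 IMF and 4 SF clones. The fibrillar part was 81.2% to 82.8% in the IMF clones and 71.7% to 77.9% in the SF clones, and the basement membrane part was largest in SF1 at 7.44%.

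**Figure D5:**
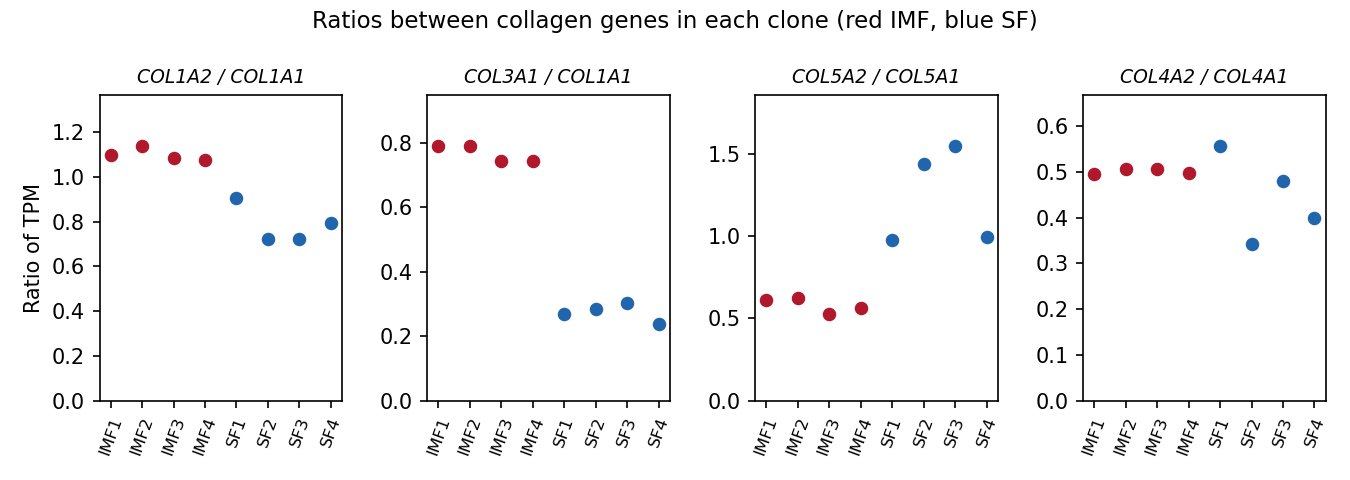
TPM ratios between pairs of collagen genes in each clone, with red points for the 4 IMF clones and blue points for the 4 SF clones. *COL1A2* to *COL1A1*, *COL3A1* to *COL1A1* and *COL5A2* to *COL5A1* fell into separate ranges by group, whereas *COL4A2* to *COL4A1* overlapped at 0.495 to 0.506 and 0.342 to 0.557.

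By median log2 fold change the classes ranged from -1.49 for type VI and -1.17 for fibril-associated genes, through -0.54 for basement membrane and -0.31 for fibrillar genes, to 1.56 for multiplexins and 3.04 for transmembrane genes. The basement membrane median is the value of *COL4A1* and turned to 1.13 without SF1, 1.34 with limma-voom and 1.30 with the block, so that class has no stable place in this order. The transmembrane median is the fitted value of *COL25A1*, which was not called, rested on 22 against 2 counts and fell to 1.52 with a prior count of 2, and the abundant *COL17A1* had a value of -0.70. The calls within them were 3 lower and 1 higher of 4 type VI genes, 3 lower of 8 fibril-associated genes, 2 lower and 1 higher of 9 fibrillar genes, 1 higher of 5 basement membrane genes and 1 higher of 3 transmembrane genes. In every class with calls in both directions the gene that was higher in IMF was the scarce one. *COL5A3* averaged 6.04 TPM in IMF clones and *COL6A5* 1.06 TPM, where *COL1A1* averaged 3431 TPM and *COL6A1* 715 TPM.

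Collagen chains are hydroxylated, folded, exported, trimmed and crosslinked by dedicated proteins, and 50 genes for these steps and for collagen receptors and collagenases were listed. All 45 of them in the table were tested, and 5 (11.1%) were called higher and 6 (13.3%) lower in IMF clones, beside 4.78% and 4.04% of all genes. The list was chosen with earlier results of these data known. Most of the folding machinery was not called. *P4HB*, the shared subunit of prolyl 4-hydroxylase, had 733 ± 27.5 and 706 ± 65.2 CPM (SD, n = 4), and none of the 6 chaperone and export genes was called, including the collagen chaperone *SERPINH1* (log2 fold change 0.20, adjusted p = 0.250). The exceptions among the hydroxylases were *P4HA3*, an alternative catalytic subunit, at 31.8 ± 2.32 CPM in IMF clones against 1.89 ± 0.659 CPM in SF clones (log2 fold change 4.06, SE 0.22, adjusted p = 9.65e-06), and *P3H2*, a prolyl 3-hydroxylase, lower in IMF (-1.97). The 3 lysyl hydroxylase genes were not called, with *PLOD1* (-0.83) and *PLOD3* (-0.67) past the adjusted p only.

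In propeptide removal, *PCOLCE*, an enhancer of the C-terminal protease, was lower in IMF clones (log2 fold change -1.19, SE 0.14), whereas the proteases *BMP1* (0.37) and *ADAMTS2* (-0.10) were not called. Among the 5 lysyl oxidase genes, which make the crosslinks, *LOXL2* and *LOXL4* were lower in IMF clones. *LOXL2* had 268, 275, 255 and 261 CPM in the IMF clones and 1307, 960.2, 1188 and 921 CPM in the SF clones (log2 fold change -2.05, SE 0.13). *LOXL4* had a log2 fold change of -1.84, and *LOX* itself, at 762 ± 20.7 and 891 ± 292 CPM, was not called.

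The receptors were called in both directions. *ITGA11*, the integrin α11 subunit that binds fibrillar collagen on fibroblasts, had 3.84, 5.20, 6.07 and 4.90 CPM in the IMF clones and 68.3, 140.4, 158 and 91.0 CPM in the SF clones, the largest difference of the list in the lower direction (log2 fold change -4.51, SE 0.31). *MRC2*, an endocytic collagen receptor, was also lower in IMF clones (-2.09). In contrast *ITGA2* (2.73), a collagen-binding integrin subunit of epithelial and endothelial cells and platelets, the discoidin receptor *DDR1* (1.03, adjusted p = 0.0219) and the scavenger receptor *CD36* (2.86) were higher. *DDR1* lay at the threshold and was not called without IMF2, IMF3, SF2, SF3 or SF4 (0.85 to 1.00), nor with either other filter (0.99). *DDR2*, the related receptor of fibroblasts, was below the fold threshold (-0.85). Among collagenases and gelatinases, *MMP9* had 43 to 70 counts in the IMF clones, against 0 counts in every SF clone, while *MMP2*, at 2736 ± 91.0 and 2726 ± 800.2 CPM, did not differ beyond the spread (adjusted p = 0.989).

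Marker lists for other cell kinds in which collagens are prominent were also read. Of 4 chondrocyte markers in the table *ACAN* was higher in IMF clones (2.46 ± 0.384 against 0.117 ± 0.123 CPM), and of 2 tendon markers *SCX* was lower (1.48 ± 0.104 against 5.11 ± 1.53 CPM). Neither of 2 osteoblast markers nor of 2 Schwann cell markers was called. Of 3 adipocyte markers in the table *FABP4* was higher in IMF clones (9.64 ± 1.86 against 0.178 ± 0.207 CPM). *PLIN1* (2.84 ± 0.165 against 3.62 ± 0.212 CPM) and *CIDEC* (0.540 ± 0.611 against 0.436 ± 0.545 CPM) were not called. The 3 together summed to 11.5 to 14.2 CPM in IMF clones against 3.50 to 5.01 CPM in SF clones, a difference carried by *FABP4*. Of 4 leukocyte markers *CD14* was called higher in IMF clones, but their summed level was lower there, at 18.7 to 32.1 CPM against 36.5 to 66.2 CPM, without overlap, and *PTPRC*, at 9.68 ± 7.28 against 33.3 ± 11.3 CPM, was not called (adjusted p = 0.0518). The summed chondrocyte level was 7.34 to 8.44 CPM in IMF clones and 4.30 to 15.6 CPM in SF clones, and the summed tendon level was 7.63 to 8.70 CPM and 12.5 to 52.4 CPM. Their part in the collagen results was not tested.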

How the data were processed

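RNA-seq was analysed for 8 clones (4 IMF and 4 SF), grouped by the sample labels. The authors deposited whole-number read counts per gene and clone with gene lengths. The study's methods name HISAT2, ARS-UCD2.0 and FeatureCounts, whereas the submitters' processing notes list Trimmomatic 0.39, STAR 2.7.11a, featureCounts 2.0.2 and DESeq2 1.42.0. The methods describe TPM and a non-stranded kit and the labels a dUTP second strand, so antisense overlaps are uncertain. The file's group means and its own DESeq2 columns (fold change, error, statistic, p, adjusted p, category) were not used. A row with no gene name (0.0148% to 0.0209% of counts) was left out.

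Genes with at least 20 counts in all were tested with edgeR 4.0.16 (R 4.3.3, TMM scaling, quasi-likelihood test, prior count 0.125, Benjamini-Hochberg adjustment over 18339 genes). SE was the log2 fold change divided by the square root of F. CPM used TMM-scaled library sizes, and TPM used the deposited lengths. The floor of 3 counts was 0.0981 to 0.165 CPM. Intervals and floors cover counting error only. Alternatives were DESeq2 1.42.0, limma 3.58.1 (voom), other scalings, filters, prior count, glmTreat, a robust fit, a clone-number block and leaving out each clone. The script was tested on simulated data. The named genes were all collagen genes and the called genes of the pathway list, with set examples of uncalled genes. The members, classes and lists were chosen with earlier results of these data known. Same-numbered clones were not treated as pairs. RefSeq positions are of ARS-UCD2.0.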

Additional observations from a re-analysis of the deposited data

Results flagged for a closer look

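For the 35 tested collagen genes and the 5 class shares in each depot, 80 groups of 4 clones were examined for a clone set apart. Dixon's criterion was used (the gap to the nearest clone as a ratio of the whole range, at its 95% critical value), and 4 (5.0%) exceeded it. Chance gives 1 in 20 for independent, normally distributed values. These groups share clones, and the shares are built from the genes, so that rate cannot be applied to them. *COL13A1* in SF clones, at 0 CPM in each, could not be flagged. In SF clones, SF1 stood apart for *COL18A1* at 101 CPM (ratio 0.980) and for *COL8A2* at 9.14 CPM (ratio 0.857). In IMF clones, IMF1 stood apart for *COL21A1* at 1.34 CPM (ratio 0.931) and for *COL25A1* at 0.384 CPM (ratio 0.927, 8 counts).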

How the results depend on the processing

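Of the 12 called collagen genes, 9 were called in the same direction in all 19 alternatives. The count lower in IMF was 5 with glmTreat against a log2 fold change of 1, and the count higher was 7 with limma-voom. Fibrillar genes lower in IMF numbered 1 with total counts alone and 0 with glmTreat, in which *COL1A1*, *COL5A2* and *COL14A1* were lost (adjusted p = 0.175, 1.0 and 0.360), and transmembrane genes higher in IMF numbered 2 with DESeq2 and with limma-voom. Leaving out each clone gave 8 to 10 collagen genes lower and 4 to 6 higher, and 0 to 1 basement membrane genes lower (1 without IMF1). With total counts alone the all-gene median shifted from -0.03 to 0.12 (log2). Over all genes tested, glmTreat called 155 lower and 476 higher, and the block called 653 and 836. Of the pathway genes, 4 were higher with either other filter and with glmTreat (*DDR1* lost), 6 with total counts alone (*PCOLCE2* added), and 4 to 5 leaving out a clone, while 6 were lower in each alternative but glmTreat, with 4 (*P3H2* and *PCOLCE* lost). Shares taken from counts without length were 80.8% and 71.5% for fibrillar genes in IMF and SF clones, 3.28% and 9.51% for fibril-associated genes, and in IMF clones 3.72% for basement membrane and 9.83% for type VI genes. Direction turned for uncalled genes (log2 fold changes). These were *COL5A1* (0.012 with limma-voom, 0.0022 with upper quartile factors, 0.15 with total counts alone, 0.016 with the block, -0.11 to 0.14 leaving out a clone), *COL4A1* (1.14 with limma-voom, 1.11 with the block, -0.95 to 1.10 leaving out a clone), *COL4A2* (1.34, 1.30 and -1.01 to 1.39 likewise) and *COL8A2* (0.59, 0.45 and -1.30 to 1.12 likewise), the last 3 turning without SF1. Leaving out a clone also gave -0.43 to 0.039 for *COL11A2* (turning without SF4) and -0.40 to 0.50 for *COL9A3* (turning without IMF3, at -0.018, IMF4, at -0.15, or SF3). The cause was not tested, apart from glmTreat's stricter hypothesis. Whether same-numbered clones come from the same animal was not stated. Deviations of the 4 same-numbered pairs correlated at -0.0093 to 0.139 (mean 0.0548, against -0.0184 over the 12 others). With so few pairs and such weak correlations, these values cannot decide whether clone numbers mark a pairing. With clone number as a replicate block 8 collagen genes were lower and 5 higher, *COL15A1* being added (log2 fold change 1.01, adjusted p = 0.0187). *COL25A1* gave a value in 16 alternatives, because its counts were too few for the others. Depth limits *COL10A1*, *COL25A1*, *COL4A4*, *COL13A1* and the type IX genes.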
